A study of Mus musculus with 9 samples.

Results

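The genes described here encode the constitutive subunits of the mouse proteasome. Their transcripts were measured by RNA-seq in BV2, an immortalized mouse cell line derived from microglia, the resident macrophages of the brain. Members were the protein-coding genes named Psma, Psmb, Psmc, Psmd or Psme with a number, without the immunoproteasome subunits Psmb8, Psmb9 and Psmb10, with 1 TPM or more in no fewer than 3 of 9 libraries. TPM is the number of reads per unit of transcript length, scaled so that all libraries have an equal total. The name rule matched 40 genes and 38 passed, of 11260 genes that passed the same filter and 55906 in the table. Psma8, the testis form of an alpha subunit, was listed at 0 in every library, and Psmb11, the thymus form of a catalytic subunit, reached at most 0.01 TPM; the nearest gene that passed, Psme4, was at 3.06 to 7.49 TPM. The members comprised 7 alpha ring genes, 7 beta ring genes, 9 cap base genes, 8 cap lid genes, 3 chaperones of cap assembly and 4 genes of alternative activators.

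All cells were labelled wild type, and the study compared 3 groups of 3 libraries. Control cells carried no treatment, LPS cells were given lipopolysaccharide, a bacterial cell wall component that activates microglia, and LPS+Pilo cells were given lipopolysaccharide with a treatment named Pilo in the labels. The series' design text states that it asked how Pilo modulates the inflammatory response of microglia. The labels state neither what Pilo stands for nor the doses and durations. Libraries are labelled as biological replicates, with no word on whether the cultures were separate, so the p-values measure the spread between libraries, which may be technical. As in any bulk sample, fewer cells of a type and less RNA per cell cannot be told apart.

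The proteasome is the main protease of the cytosol and nucleus for proteins tagged with ubiquitin. Its barrel-shaped core stacks rings of alpha subunits, which gate the entrance, on rings of beta subunits, of which those encoded by Psmb5, Psmb6 and Psmb7 cut peptides. A cap with an ATPase base and a lid binds the ubiquitin chain, removes it and unfolds the substrate, while alternative activators open the gate without ubiquitin; in macrophages, interferon brings in the immunoproteasome subunits, which change the peptides made for antigen presentation.

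Across the 9 libraries the constitutive proteasome genes were abundant, and no large difference between groups was found. The 95% interval of the fold change lay within a 2-fold change in either direction for 38 of 38 members in each of the 3 comparisons. The same was true of 86.1% of all tested genes for LPS against Control, 93.0% for LPS+Pilo against LPS and 84.7% for LPS+Pilo against Control. Members lay at higher levels than most tested genes, and the part of level in this difference was not tested. A single member of 38 passed the test in any comparison: the lid gene Psmd8 was called higher in LPS+Pilo against Control. In that comparison 10.2% of all tested genes were called. The call of Psmd8 was kept in 10 of 18 other settings of the fit. Leaving out LPS 1 put Psmc6 outside the 2-fold bound in LPS against Control, which left 37.

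Mean levels over the 9 libraries spanned 278-fold, from 4.85 TPM for Psme4 to 1346 TPM for Psmb6. Ring, base and lid subunits are joined in equal numbers in a particle with a cap at both ends of the core. The means of their 31 genes spanned 58.2-fold, from 23.1 TPM for Psmc6. Of the 38 members, 37 lay above the median level of tested genes, 19 lay in the top 10% and 24 reached a mean of 100 TPM, against 12.5% of all tested genes. Together they took 0.859% of all TPM in Control (range 0.844% to 0.868%), 0.901% in LPS (0.870% to 0.933%) and 0.895% in LPS+Pilo (0.862% to 0.919%). The LPS libraries all lay above the Control libraries, and the LPS+Pilo libraries overlapped both. The coefficient of variation over the 9 libraries had a median of 12.4% among members and 16.5% among all tested genes within the members' range of levels. These genes were not matched in level, with a median of 23.5 TPM against 128 TPM for members. Members were also shorter, with a median of 1586 bases against 3020 bases for all tested genes. The part of level and length in this difference was not tested.

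**Figure D1:**
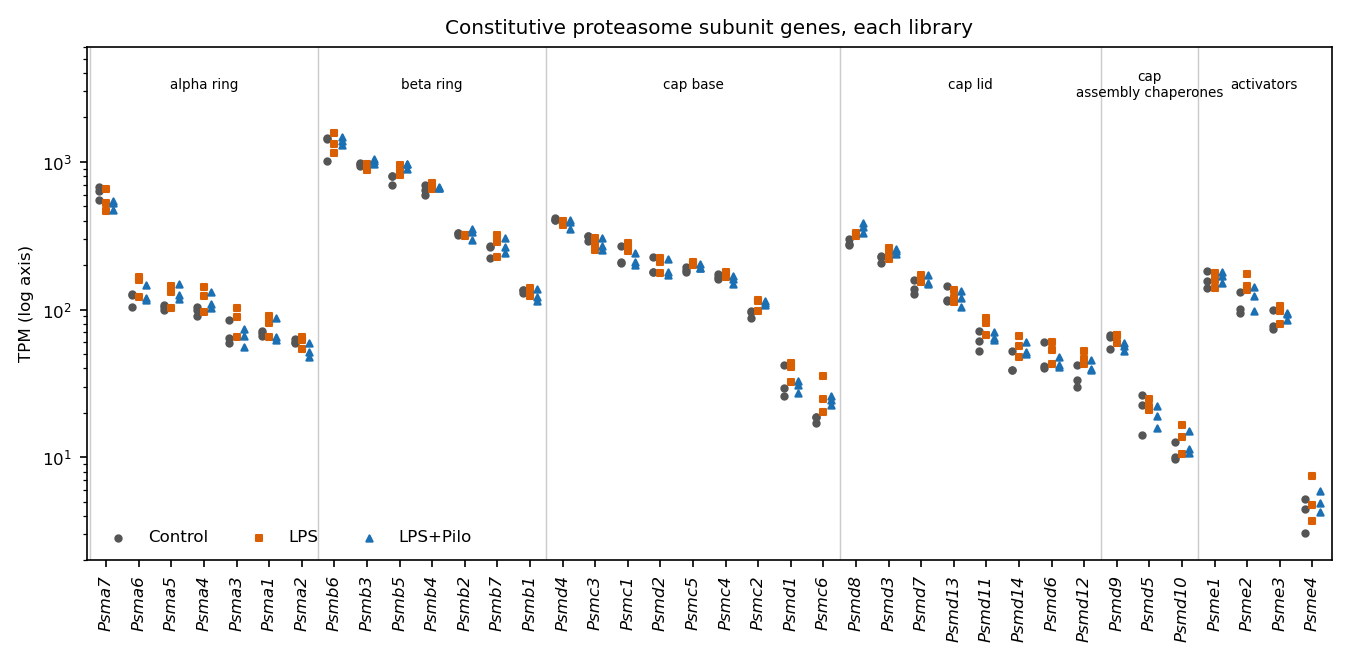
TPM of each of the 38 members (log axis) in the 9 libraries, by structural group and ordered by mean level within it; circles are Control, squares LPS and triangles LPS+Pilo. Beta ring genes lie between 114 and 1574 TPM, and Psme4 is lowest, with no library above 7.49 TPM.

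The beta ring was the most abundant group, with a median of 668 TPM over its 7 genes, followed by the cap base at 195 TPM, the alpha ring at 111 TPM, the activators at 108 TPM, the lid at 95.5 TPM and the cap chaperones at 20.9 TPM. Within the beta ring, Psmb6, Psmb3, Psmb5 and Psmb4 had means of 1346, 969, 860.5 and 668 TPM, while Psmb2, Psmb7 and Psmb1 had means of 323, 268 and 129 TPM. The beta ring was also the steadiest group, with a median coefficient of variation of 6.62%, against 15.3% in the alpha ring, 9.72% in the cap base and 13.4% in the lid. Psmb3, which encodes a noncatalytic beta subunit, varied least of all members, at 4.66%, and Psme4 varied most, at 26.6%.

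The levels of 1 alpha subunit are uncertain. Psma3 has a processed pseudogene, Gm13835, that is at least 95% identical over at least 200 bases and was listed at 51.9 to 114.7 TPM, beside 55.7 to 102.7 TPM for Psma3 itself. Of the 38 members, 10 had such a near-identical copy in the table, and the copies summed to at least 1 TPM on average for Psma3, Psmb3 (2.27 TPM) and Psmd1 (3.45 TPM).

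The labelled cell type was checked first: 10 of 12 markers of microglia and macrophages had a mean of at least 1 TPM, while Aif1 and P2ry12 did not. The summed level of the 12 markers was 3328 to 3659 TPM in Control, 2640 to 2746 TPM in LPS and 2293 to 2379 TPM in LPS+Pilo. Most of the sum came from Cd68, Tyrobp and Trem2, with means of 1068, 907 and 388 TPM. Not every marker fell with it. Itgam was at 8.4 to 14.2 TPM in Control, 21.5 to 42.5 TPM in LPS and 27.9 to 32.8 TPM in LPS+Pilo. Tmem119 lay between 2.15 and 3.05 TPM in all libraries. The summed markers of astrocytes, neurons, endothelial cells and fibroblasts stayed at or under 0.36 TPM in every library. Those of oligodendrocytes summed to 4.02 to 6.76 TPM, nearly all from Mbp, and those of T or B cells to at most 3.10 TPM.

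Libraries of the same group differed in a way that moved with transcript length. For each gene, a library's deviation was taken from its group mean on the log2(TPM + 1) scale and set against the length of the longest coding transcript in GENCODE M21. Over 9945 tested genes with a length, Spearman's rho was 0.40 in Control 1, -0.41 in Control 2, 0.27 in LPS 1, 0.36 in LPS 2 and -0.51 in LPS 3, and lay between -0.18 and 0.12 in the other 4 libraries. Over the 38 members it was 0.48 in Control 1, -0.55 in Control 2, 0.38 in LPS 1, 0.17 in LPS 2 and -0.52 in LPS 3. Genes share their libraries and are not replicates, so these values are descriptions.

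Core and cap genes stood apart in the same libraries. Core transcripts are shorter, with a median of 1162.5 bases for the 14 ring genes and 1819 bases for the 17 base and lid genes. Control 1 was the highest library of its group for 13 of the 17 cap genes (76.5%) and for 62.4% of all tested genes. It was the lowest for 8 of the 14 core genes (57.1%) and for 19.3% of all tested genes. LPS 3 was the lowest of its group for 14 of 17 cap genes (82.4%) and for 66.3% of all tested genes, and the highest for 9 of 14 core genes (64.3%) and for 15.9% of all tested genes. In Control 1 and LPS 3 the cap genes thus lay nearer to the shares of all tested genes than the core genes did. In LPS+Pilo 1 and 2 the core genes lay nearer. LPS+Pilo 1 was the highest of its group for 94.1% of cap genes, 64.3% of core genes and 49.2% of all tested genes. LPS+Pilo 2 was the lowest for 76.5%, 50% and 42.8% in the same order. These differences were not tested. Summed cap TPM divided by summed core TPM was 0.540, 0.431 and 0.442 in Control 1 to 3, 0.539, 0.495 and 0.424 in LPS 1 to 3 and 0.497, 0.438 and 0.448 in LPS+Pilo 1 to 3, so each group held 1 or 2 high libraries and the groups overlapped. In LPS+Pilo, library 1 was the highest of its group for 32 of 38 members and for 49.2% of all tested genes, and library 2 the lowest for 26 of 38 members and for 42.8% of all tested genes. The part of transcript length in the comparisons below was not tested beyond 1 alternative, in which a length trend of each library was removed. That trend was fitted to deviations from the mean of all 9 libraries, not from the group mean. Differences between groups that follow length were therefore removed with it.

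**Figure D2:**
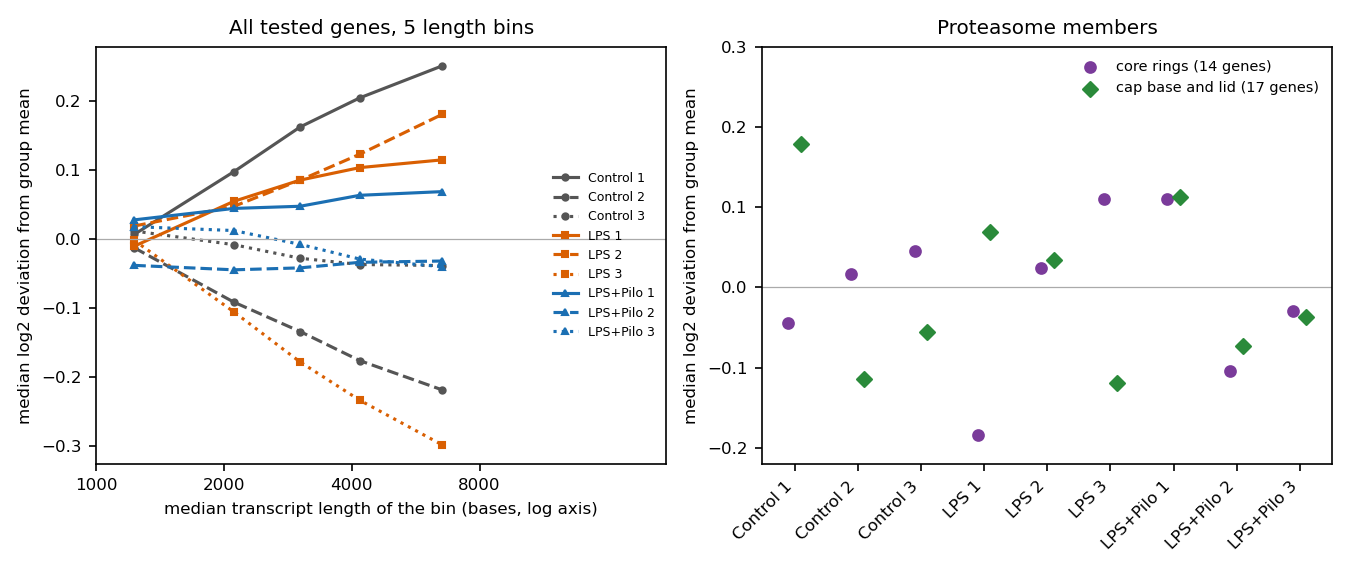
Left, median log2 deviation from the group mean for all tested genes in 5 bins of transcript length (log axis, bases), with 1 line per library; right, the same median for the 14 core genes (circles) and the 17 cap base and lid genes (diamonds) in each library. Control 1 and LPS 3 part with length in opposite directions, and the cap medians there are 0.18 and -0.12.

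Sequences upstream of the members bear on how these genes are known to be regulated. Nfe2l1 encodes a transcription factor that raises proteasome genes together when the proteasome is impaired, through elements that hold TGACNNNGC. RefSeq promoters of build GRCm38.p6 were matched by symbol for 32 of the 38 members, and the 250 bases before the annotated start were searched on both strands. TGACNNNGC was held by 5 of the 32 (15.6%) and by 12.1% of the 8156 tested genes with a promoter. The windows are shown with the match in capitals and up to 20 bases on each side, 5′ to 3′ on the gene's own strand. Capitals that read GCNNNGTCA are a match on the opposite strand.

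Psmb5 (chr14:54618014-54618062, minus strand): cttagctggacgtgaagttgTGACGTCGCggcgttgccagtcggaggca
Psmb6 (chr11:70525328-70525356, plus strand): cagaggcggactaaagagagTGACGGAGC
Psmc6 (chr14:45329577-45329625, plus strand): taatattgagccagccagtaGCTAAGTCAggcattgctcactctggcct
Psmd12 (chr11:107479278-107479309, plus strand): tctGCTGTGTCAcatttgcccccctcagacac
Psmd9 (chr5:123228139-123228187, plus strand): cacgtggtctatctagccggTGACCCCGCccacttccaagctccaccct

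The match began 47 bases before the start of Psmb5, 9 before that of Psmb6 and 31 before that of Psmd9, but 227 and 247 bases before the starts of Psmc6 and Psmd12. The related letters TGAGNNNGC were held by 7 of 32 members (21.9%) and 15.9% of tested genes, and CCAAT, the core of the NF-Y element, by 12 of 32 (37.5%) and 37.1%. CCGGAAG, 1 strict form of an ETS element, was held by 10 of 32 (31.3%) and 15.8% of tested genes. It was kept from a larger set of letter strings after its count had been seen, so the difference is a description. None of these 4 strings was found in the 100 bases before the start of Psmd8, which are shown because Psmd8 was the member that passed the test. This covers exact matches only, so other forms of an ETS element may be present.

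Psmd8 (chr7:29180674-29180773, minus strand): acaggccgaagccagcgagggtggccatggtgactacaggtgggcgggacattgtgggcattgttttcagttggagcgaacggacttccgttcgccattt

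LPS against Control asked how activation alters these genes. None of the 38 members passed limma's test at an adjusted p under 0.05, against 7.76% of all tested genes. At an unadjusted p under 0.05 there were 6, all higher in LPS (Psmc2, Psmc6, Psmd11, Psmd12, Psmd14 and Psme2), against 22.7% of tested genes. The groups did not overlap for 6 members that were higher and 2 that were lower, against 24.2% of tested genes. The median log2 fold change was 0.16 over the members and 0.07 over all tested genes, and 29 of 38 were above 0 (76.3%), against 58.9% of tested genes. An interval within ±0.5 log2 was found for 23 of 38 members and 33.8% of tested genes.

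LPS+Pilo against LPS asked what Pilo alters in activated cells. None of the 38 members passed, against 0.0444% of tested genes, which is 5 genes. Only Psmc1 had an unadjusted p under 0.05, against 6.76% of tested genes. The groups did not overlap for Psmc1 and Psmd9, both lower in LPS+Pilo, against 12.2% of tested genes. The median log2 fold change was -0.07 over the members and -0.05 over all tested genes, and 29 of 38 members (76.3%) were below 0, against 60.3% of tested genes. This comparison shares the LPS libraries with the one before it.

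LPS+Pilo against Control called 1 of 38 members, Psmd8, against 10.2% of tested genes. At an unadjusted p under 0.05 there were 5, all higher in LPS+Pilo (Psma5, Psmb5, Psmc2, Psmc6 and Psmd8), against 24.0% of tested genes. The groups did not overlap for 6 members that were higher and 2 that were lower, against 30.5% of tested genes. The median log2 fold change was 0.06 over the members and 0.02 over all tested genes, and 23 of 38 (60.5%) were above 0, against 52.9% of tested genes. Both comparisons with Control share the Control libraries.

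**Figure D3:**
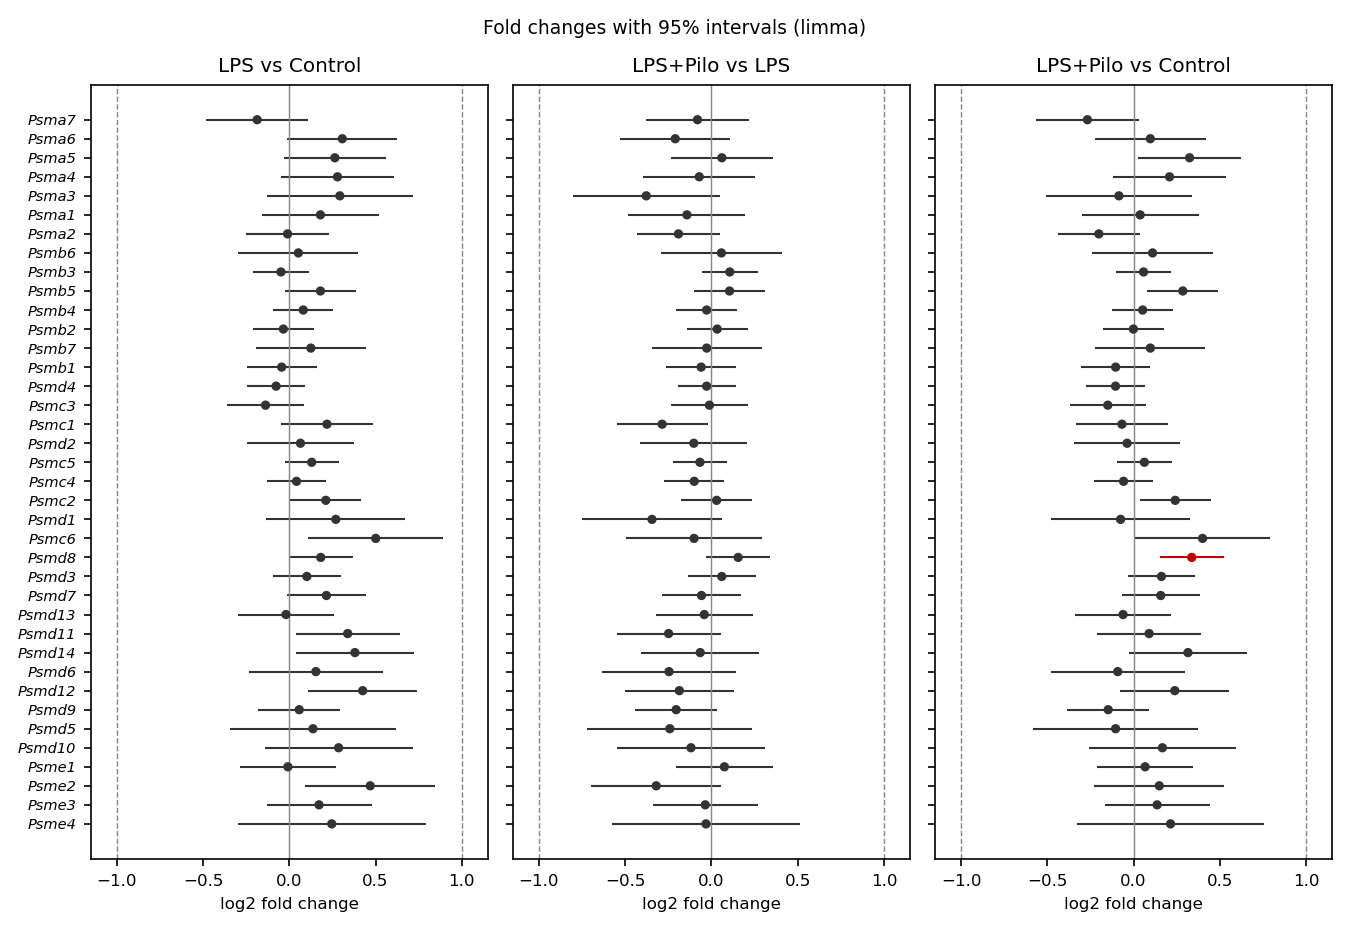
Log2 fold change of each member on the log2(TPM + 1) scale with its 95% interval, in the 3 comparisons; dashed lines mark a 2-fold change and red marks an adjusted p under 0.05. Every interval lies inside the dashed lines and Psmd8 in LPS+Pilo against Control is the only red one.

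Alpha ring genes form the gate of the core. Their log2 fold changes ran from -0.19 (Psma7) to 0.31 (Psma6) in LPS against Control. Of the 7, 5 were above 0, among them Psma3 with its uncertain level. Values here and below are given in the order of libraries 1, 2 and 3. Psma7, the most abundant alpha subunit, was at 549, 674 and 635 TPM in Control, 465, 523 and 656 TPM in LPS and 540.1, 471 and 530.1 TPM in LPS+Pilo. The LPS+Pilo libraries all lay below the Control libraries, with a log2 fold change of -0.27 ± 0.13 (SE), adjusted p = 0.258, while LPS overlapped both.

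Psma5 was at 100.1, 104 and 108 TPM in Control, 103, 132 and 144 TPM in LPS and 149, 118 and 126 TPM in LPS+Pilo. All LPS+Pilo libraries exceeded all Control libraries, with a log2 fold change of 0.32 ± 0.13 (SE), adjusted p = 0.171. Psma6 was at 105, 127 and 126 TPM in Control, 121, 158 and 165 TPM in LPS and 148, 119 and 116 TPM in LPS+Pilo, and Control 1 was the lowest of the 9. The log2 fold change of Psma6 in LPS against Control was 0.31 ± 0.14 (SE), adjusted p = 0.241, and the groups overlapped.

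Psma2, the least abundant alpha subunit, was at 59.9, 63.1 and 59.5 TPM in Control, 54.5, 62.1 and 65.1 TPM in LPS and 59.8, 47.6 and 51.6 TPM in LPS+Pilo. Its groups overlapped in every comparison. Psma3, whose reads may be shared with its pseudogene, was at 85.1, 64.04 and 59.3 TPM in Control, 103, 89.3 and 65.3 TPM in LPS and 65.7, 73.8 and 55.7 TPM in LPS+Pilo. Its log2 fold change of -0.38 in LPS+Pilo against LPS was the lowest of all members (adjusted p = 0.771), and it was -0.24 without LPS 1. Psma3 and its copies summed to 199.8, 147 and 131 TPM in Control and 189, 171 and 136 TPM in LPS. In LPS+Pilo the sum was 153, 136 and 108 TPM. The LPS sums lay within the Control range, and the sum was not tested. Psma1 and Psma4 lay between 62.3 and 141 TPM, with log2 fold changes of 0.18 and 0.28 in LPS against Control.

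Beta ring genes include the catalytic subunits. In LPS against Control their log2 fold changes ran from -0.05 (Psmb3) to 0.18 (Psmb5), and for 7 of 7 the interval lay within ±0.5 log2 in every comparison. Psmb5, which encodes the subunit with chymotrypsin-like activity and the main target of proteasome inhibitors, was at 699, 806 and 806 TPM in Control, 809.6, 856 and 955 TPM in LPS and 889, 961 and 963 TPM in LPS+Pilo. Every LPS and LPS+Pilo library exceeded every Control library, although LPS 1 was only just above. The log2 fold change was 0.18 ± 0.09 (SE), adjusted p = 0.277, in LPS against Control, and 0.29 ± 0.09 (SE), adjusted p = 0.0848, in LPS+Pilo against Control. The latter passed with the length trend removed (adjusted p = 0.0163), with quantile normalization (0.0345) and with the replicate number as a block (0.0461). Its adjusted p ranged from 0.0163 to 0.351 over the alternatives. In this comparison the main fit called 546 genes higher and 597 lower of 11260. Removal of the length trend called 1009 and 1066 of 9945, and quantile normalization 736 and 990 of 11260. The block called 544 and 520 of 11260.

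Psmb6, which encodes the caspase-like subunit, was at 1022, 1452 and 1433 TPM in Control, 1143, 1318 and 1574 TPM in LPS and 1298, 1395 and 1476 TPM in LPS+Pilo. Control 1 was the lowest and LPS 3 the highest, so that the spread inside each group exceeded the differences between group means. Psmb7, which encodes the trypsin-like subunit, was at 222, 271 and 267 TPM in Control, 228, 285 and 321 TPM in LPS and 307, 243 and 264 TPM in LPS+Pilo. Its lowest library was again Control 1 and its highest LPS 3, and the intervals ran from -0.19 to 0.44 log2 for LPS against Control and from -0.35 to 0.29 log2 for LPS+Pilo against LPS.

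Psmb3 was at 981, 974 and 945 TPM in Control, 959.8, 882 and 964 TPM in LPS and 962, 1009.9 and 1047 TPM in LPS+Pilo, a range of 1.19-fold over the 9 libraries. Psmb1, the least abundant beta subunit, was at 130.3, 135 and 135 TPM in Control, 123, 126 and 140.1 TPM in LPS and 137, 114 and 122 TPM in LPS+Pilo. Over the 3 comparisons the log2 fold change farthest from 0 was 0.11 for Psmb3 and -0.10 for Psmb1. Psmb2 lay between 294 and 352 TPM and Psmb4 between 601 and 722 TPM, and over the 3 comparisons the log2 fold change of either that lay farthest from 0 was 0.08 (Psmb4). The LPS libraries of Psmb2 lay just below those of Control, at 316 to 320.0 TPM against 321 to 328 TPM.

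The catalytic subunits were also set against the immunoproteasome subunits that can replace them, as a ratio of TPM within each library, which does not depend on the share taken by other genes. The ratio can still move with transcript length, because the replacing subunit has the longer transcript in each pair. The longest coding transcripts had 1628 and 899 bases for Psmb8 and Psmb5. They had 1352 and 798 bases for Psmb9 and Psmb6, and 1311 and 1160 bases for Psmb10 and Psmb7. The part of length in these ratios was not tested. Psmb8 over Psmb5 was 0.203, 0.149 and 0.166 in Control, 0.182, 0.166 and 0.149 in LPS and 0.18, 0.15 and 0.172 in LPS+Pilo. Psmb9 over Psmb6 was 0.0196, 0.00853 and 0.0137 in Control, 0.0125, 0.011 and 0.00802 in LPS and 0.0142, 0.0099 and 0.0137 in LPS+Pilo. Psmb10 over Psmb7 was 1.11, 0.898 and 1.01 in Control, 1.23, 0.896 and 0.795 in LPS and 0.847, 1.18 and 1.04 in LPS+Pilo. Transcripts of the constitutive form thus exceeded those of the immunoproteasome form by far for Psmb6, clearly for Psmb5 and not for Psmb7.

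The groups overlapped for each ratio in each comparison. In exact two-sided permutation tests of the log2 ratio, the adjusted p was 1 in all 9 tests, where 3 libraries against 3 cannot go below an unadjusted p of 0.1. The widest difference was -0.35 on the log2 scale, for Psmb9 over Psmb6 in LPS (mean ratio 0.0105 ± 0.0023, SD, n = 3) against Control (0.0139 ± 0.0055, SD, n = 3), with an exact permutation p of 0.4. Without Control 1 this difference was -0.067, without Control 2 it was -0.67 and without LPS 3 it was -0.17. The sign of 7 of the 9 differences turned when 1 library was left out, so no direction is given for them.

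**Figure D4:**
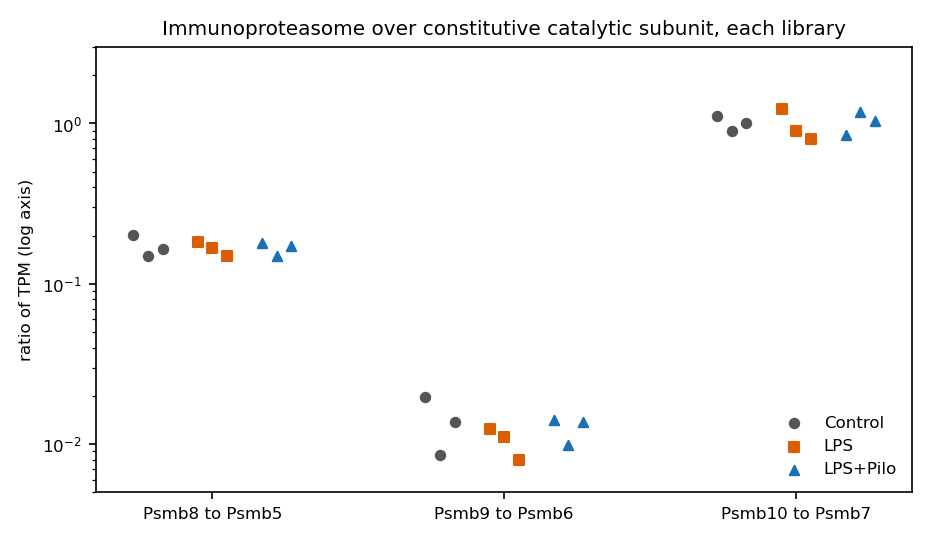
Ratio of TPM of each immunoproteasome subunit to the constitutive catalytic subunit that it can replace (log axis), with 1 point per library, libraries 1 to 3 from left to right within each group. The ratio is near 1 for Psmb10 over Psmb7, 0.149 to 0.203 for Psmb8 over Psmb5 and at most 0.0196 for Psmb9 over Psmb6, and the groups overlap in each.

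Cap base genes encode the ATPase ring that unfolds the substrate and the scaffolds and ubiquitin receptors around it. In LPS against Control, 7 of 9 were above 0 and 0 passed. Psmc6, the ATPase gene with the lowest level, was at 17.1, 18.6 and 18.9 TPM in Control, 20.4, 35.5 and 24.7 TPM in LPS and 26.1, 24.3 and 22.6 TPM in LPS+Pilo. All 6 treated libraries exceeded all Control libraries, with LPS 2 standing highest. The log2 fold change of 0.50 ± 0.17 (SE), adjusted p = 0.124 was the largest of any member in LPS against Control, and that in LPS+Pilo against Control was 0.40 ± 0.17 (SE), adjusted p = 0.199. Without LPS 2 the former was 0.29.

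Psmc2, another ATPase gene, was at 98.4, 87.2 and 96.2 TPM in Control, 116, 115 and 97.2 TPM in LPS and 114, 108 and 111 TPM in LPS+Pilo. The LPS+Pilo libraries exceeded all Control libraries, by a log2 fold change of 0.24 ± 0.09 (SE), adjusted p = 0.138, and LPS 3 lay within the Control range. With the length trend removed, the adjusted p of Psmc2 in LPS+Pilo against Control was 0.0307. That setting called 1009 genes higher and 1066 lower of 9945, against 546 and 597 of 11260 in the main fit. Psmc1, also an ATPase gene, was at 269.6, 208 and 208 TPM in Control, 282, 264 and 249 TPM in LPS and 240.5, 200.2 and 211 TPM in LPS+Pilo. The LPS+Pilo libraries lay below all LPS libraries, with a log2 fold change of -0.29 ± 0.12 (SE), adjusted p = 0.691, and Control 1 lay among the LPS values.

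Psmd4, which encodes a ubiquitin receptor of the cap and was the most abundant base gene, was at 405, 417 and 407 TPM in Control, 397, 375 and 393 TPM in LPS and 402, 349 and 393 TPM in LPS+Pilo. Both treated groups lay below Control without overlap, with a log2 fold change of -0.08 ± 0.08 (SE), adjusted p = 0.581, for LPS and -0.10 ± 0.08 (SE), adjusted p = 0.452, for LPS+Pilo. The interval in LPS+Pilo against Control ran from -0.27 to 0.06 log2. Psmc3, an ATPase gene, was at 289.7, 314 and 314 TPM in Control, 252, 278 and 305 TPM in LPS and 306, 252 and 271 TPM in LPS+Pilo, and its groups overlapped in all comparisons.

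Psmd1, a scaffold gene with a copy at up to 6.30 TPM in the table, was at 42.3, 26.1 and 29.5 TPM in Control, 40.8, 43.8 and 32.5 TPM in LPS and 32.8, 31.03 and 27.2 TPM in LPS+Pilo. Its log2 fold change of -0.34 was the lowest of the base genes in LPS+Pilo against LPS (adjusted p = 0.771). The remaining base genes, Psmc4, Psmc5 and Psmd2, lay between 150 and 227 TPM. Of these, Psmc5 was higher in all LPS than in all Control libraries, at 201 to 210.3 TPM against 179 to 195 TPM (log2 fold change 0.13 ± 0.07 (SE), adjusted p = 0.307).

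Cap lid genes encode the part of the cap that removes ubiquitin. Psmd8, a scaffold subunit and the most abundant lid gene, was at 302, 272 and 277 TPM in Control, 322, 329.8 and 314 TPM in LPS and 387, 328 and 364 TPM in LPS+Pilo. Every treated library exceeded every Control library, LPS+Pilo 1 and 3 were the highest, and LPS+Pilo 2 lay inside the LPS range. In LPS+Pilo the level rose from 284 ± 16.1 to 359 ± 29.8 TPM (mean ± SD over 3 libraries each); the log2 fold change was 0.34 ± 0.08 (SE), adjusted p = 0.0303, or 1.26-fold with an interval of 1.11-fold to 1.44-fold. It was 0.18 ± 0.08 (SE), adjusted p = 0.228, in LPS against Control and 0.15 ± 0.08 (SE), adjusted p = 0.779, in LPS+Pilo against LPS.

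The call of Psmd8 rested on several libraries. Its direction was kept in 18 of 18 other settings of the fit and the call in 10, with adjusted p from 0.0289 to 0.112. The call was lost without Control 2 (adjusted p = 0.0962), Control 3 (0.112), LPS 2 (0.0530), LPS+Pilo 1 (0.106) or LPS+Pilo 3 (0.102), with quantile normalization (0.0517), with median ratio scaling (0.0556) and with only the 2 groups in the fit (0.0632). With the length trend removed the adjusted p was 0.00705, in a setting that called 1009 genes higher and 1066 lower of 9945. The main fit called 546 and 597 of 11260.

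Psmd12, a lid scaffold gene, was at 42.3, 29.7 and 33.4 TPM in Control, 46.3, 52.5 and 42.7 TPM in LPS and 45.8, 39.3 and 38.8 TPM in LPS+Pilo. All LPS libraries exceeded all Control libraries, the lowest LPS library by 0.41 TPM, and Control 1 stood well above the other Control libraries. The log2 fold change was 0.43 ± 0.14 (SE), adjusted p = 0.107. The adjusted p was 0.0278 without Control 1 and 0.0196 with the length trend removed, and ranged from 0.0196 to 0.319 over the alternatives. Over all genes, 671 were called higher and 327 lower of 11163 without Control 1. With the length trend removed 912 and 919 of 9945 were called, against 464 and 410 of 11260 in the main fit.

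Psmd14, which encodes the metalloprotease that cuts ubiquitin chains from the substrate, was at 52.5, 38.95 and 39.1 TPM in Control, 56.9, 65.8 and 47.8 TPM in LPS and 60.3, 50.1 and 51.7 TPM in LPS+Pilo. Control 1 lay above LPS 3, so the groups overlapped, and the log2 fold change was 0.38 ± 0.15 (SE), adjusted p = 0.175. Psmd11, a lid scaffold gene, was at 72.2, 52.5 and 61.7 TPM in Control, 87.5, 80.7 and 67.6 TPM in LPS and 70.7, 62.5 and 63.9 TPM in LPS+Pilo. It too overlapped between Control 1 and LPS 3, with a log2 fold change of 0.34 ± 0.13 (SE), adjusted p = 0.171. Its adjusted p was 0.0327 with the length trend removed, a setting that called 912 genes higher and 919 lower of 9945.

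Psmd6 was at 60.3, 41.3 and 39.97 TPM in Control, 53.4, 60.4 and 42.8 TPM in LPS and 47.5, 41.99 and 41.1 TPM in LPS+Pilo. Psmd13 was at 143, 114 and 116 TPM in Control, 136, 119.8 and 112 TPM in LPS and 133, 105 and 119.7 TPM in LPS+Pilo. For both lid genes Control 1 was far above Control 2 and 3, the groups overlapped, and the log2 fold change in LPS against Control was 0.15 and -0.02. Psmd3 lay between 208 and 263 TPM and Psmd7 between 127 and 172 TPM. The LPS+Pilo libraries of Psmd3 all exceeded those of Control, at 237 to 258 TPM against 208 to 231 TPM (log2 fold change 0.16 ± 0.09 (SE), adjusted p = 0.302).

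**Figure D5:**
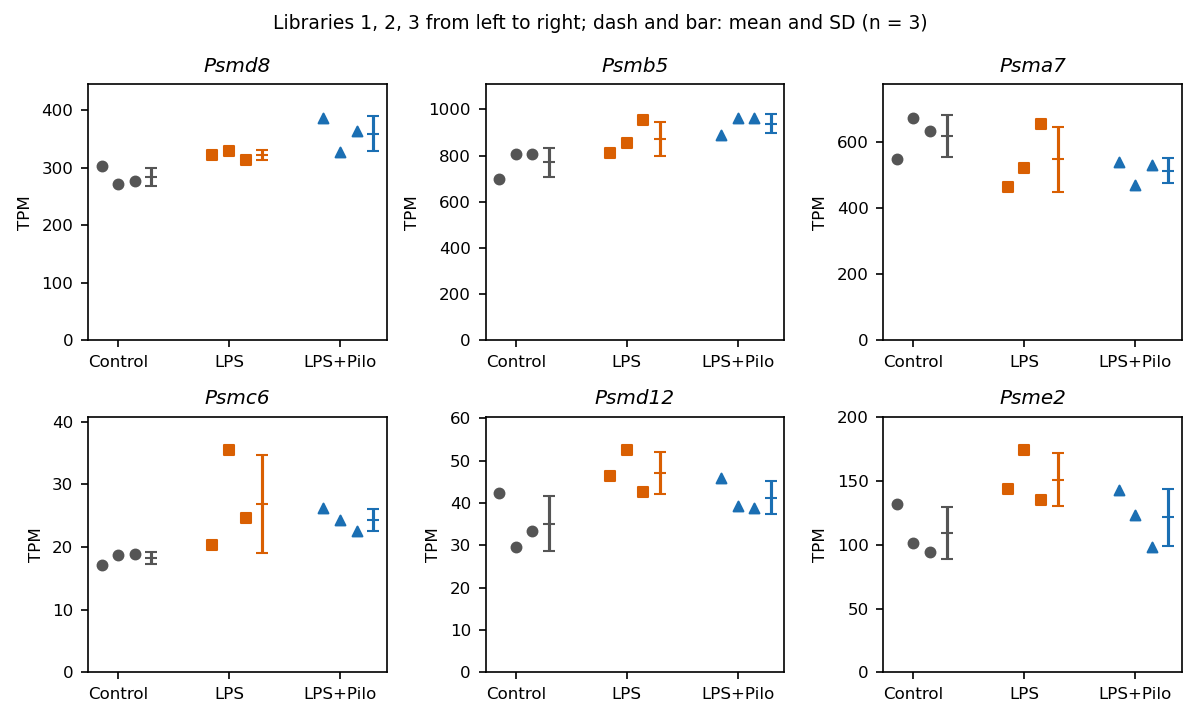
TPM in each library (points, libraries 1 to 3 from left to right) with the group mean and SD (n = 3) for Psmd8, Psmb5, Psma7, Psmc6, Psmd12 and Psme2. All treated libraries of Psmd8, Psmb5 and Psmc6 lie above Control, and for Psmd12 and Psme2 Control 1 lies close to the lowest LPS library.

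The 3 chaperones bind the cap's ATPase subunits during assembly and leave the finished particle. Psmd9 was at 65.6, 54.2 and 67.4 TPM in Control, 59.4, 67.8 and 67.1 TPM in LPS and 59.1, 52.6 and 56.4 TPM in LPS+Pilo. The LPS+Pilo libraries lay below all LPS libraries, by as little as 0.28 TPM between the nearest, with a log2 fold change of -0.20 ± 0.11 (SE), adjusted p = 0.771. Psmd5 was at 26.4, 14.04 and 22.6 TPM in Control, 24.98, 21.9 and 20.8 TPM in LPS and 22.2, 15.9 and 19.02 TPM in LPS+Pilo, and Control 2 and Control 1 were the lowest and highest of all 9. Psmd10, also known as gankyrin, was at 12.8, 9.99 and 9.74 TPM in Control, 10.5, 16.5 and 13.7 TPM in LPS and 15.03, 10.7 and 11.3 TPM in LPS+Pilo. The log2 fold changes of Psmd5 and Psmd10 in LPS against Control were 0.14 and 0.29, and neither passed in any comparison. The value of Psmd10 was 0.14 without LPS 2 and 0.45 without LPS 1.

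The activators open the core without the cap. Psme1 and Psme2 encode the interferon-inducible pair that forms the ring called PA28 alpha-beta. Psme1 was at 183, 140.1 and 155 TPM in Control, 177, 158 and 139.5 TPM in LPS and 179.8, 152 and 168 TPM in LPS+Pilo, and Psme2 was at 132, 101 and 94.6 TPM in Control, 144, 174 and 135 TPM in LPS and 142, 123 and 98.3 TPM in LPS+Pilo. The order of the libraries differed between the pair: the LPS libraries of Psme2 all exceeded those of Control, whereas those of Psme1 overlapped with them. The log2 fold change in LPS against Control was 0.47 ± 0.17 (SE), adjusted p = 0.133, for Psme2 and -0.01 ± 0.12 (SE), adjusted p = 0.977, for Psme1, and the difference between the genes was not tested.

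For Psme2 the margin was 2.53 TPM, between Control 1 and LPS 3. Its adjusted p was 0.0457 without Control 1 and 0.0483 with the length trend removed, and reached 0.374 in other alternatives. Over all genes, 671 were called higher and 327 lower of 11163 without Control 1. With the length trend removed 912 and 919 of 9945 were called. In LPS+Pilo against LPS the log2 fold change of Psme2 was -0.32 ± 0.17 (SE), adjusted p = 0.771, and the libraries overlapped. A paralog, Psme2b, had at most 1.82 TPM.

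Psme3, which encodes the nuclear activator PA28 gamma, was at 98.7, 73.8 and 77.8 TPM in Control, 106, 97.1 and 79.3 TPM in LPS and 94.95, 85.3 and 93.3 TPM in LPS+Pilo. Psme4, which encodes the large activator PA200, was at 5.18, 3.06 and 4.44 TPM in Control, 4.73, 7.49 and 3.68 TPM in LPS and 5.89, 4.26 and 4.88 TPM in LPS+Pilo. The groups overlapped for both genes in every comparison. Psme4 has the longest transcript of all members, at 6491 bases, and Control 2 and LPS 3, the libraries with the most negative length trend, were its 2 lowest. It lay below its group mean in LPS 1, where the trend was positive, and above it in Control 3, where the trend was negative. The part of length in these values was not tested.

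Among other genes of the pathway, 48 were listed and 47 were found and tested; Paaf1 was not matched. The list holds immunoproteasome subunits, chaperones of core assembly, other cap-bound proteins, ubiquitin genes and their first enzymes, ubiquitin shuttles and the p97 segregase, and regulators of proteasome genes. None passed in any comparison, against 7.76%, 0.0444% and 10.2% of all tested genes in the order above. At an unadjusted p under 0.05 there were 4 in LPS against Control, all higher in LPS (8.51%, against 22.7% of all tested genes), and 2 in LPS+Pilo against LPS, both lower (4.26%, against 6.76%). In LPS+Pilo against Control there were 11, of which 6 were higher and 5 lower (23.4%, against 24.0%), which is the share of all tested genes. Their median log2 fold changes were 0.06, -0.08 and 0.05, against 0.07, -0.05 and 0.02 for all tested genes.

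Nfe2l1 was at 29.6, 20.8 and 20.8 TPM in Control, 52.4, 42.3 and 28.2 TPM in LPS and 36.8, 30.5 and 44.97 TPM in LPS+Pilo. All treated libraries but LPS 3 exceeded all Control libraries, and the log2 fold change was 0.74 ± 0.23 (SE), adjusted p = 0.0943, in LPS and 0.64 ± 0.23 (SE), adjusted p = 0.127, in LPS+Pilo against Control. Nfe2l2, which encodes the oxidative stress regulator NRF2, was at 54.6, 28.5 and 34.8 TPM in Control, 44.4, 43.00 and 28.2 TPM in LPS and 35.9, 32.98 and 31.4 TPM in LPS+Pilo. Its groups overlapped in all comparisons. Pomp, the maturation factor of the core, was at 272, 242 and 231 TPM in Control, 238, 249.7 and 255 TPM in LPS and 253, 242 and 233 TPM in LPS+Pilo, and its log2 fold changes lay between -0.03 and 0.00.

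Of the immunoproteasome subunits, Psmb8 was at 142, 120.1 and 133 TPM in Control, 147, 142 and 142 TPM in LPS and 159.7, 144 and 166 TPM in LPS+Pilo. The LPS and LPS+Pilo libraries all exceeded those of Control, with a log2 fold change of 0.13 ± 0.09 (SE), adjusted p = 0.413, and 0.25 ± 0.09 (SE), adjusted p = 0.115. The lowest LPS library, at 142.15 TPM, was only just above Control 1, at 141.77 TPM. Psmb9 was at 19.98, 12.4 and 19.7 TPM in Control, 14.3, 14.5 and 12.6 TPM in LPS and 18.5, 13.8 and 20.2 TPM in LPS+Pilo, with overlap between all groups. Psmb10 was at 247, 244 and 270.1 TPM in Control, 281, 255 and 255 TPM in LPS and 260.2, 288 and 274 TPM in LPS+Pilo, and its log2 fold change was 0.06 ± 0.08 (SE), adjusted p = 0.707, in LPS against Control.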

How the data were processed

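RNA of 9 BV2 libraries was measured: 3 Control, 3 LPS and 3 LPS+Pilo, grouped by the labels. The authors deposited 1 table of TPM, with 1 column per library. The submitters' processing notes name build GRCm39, STAR 2.7.1a, fastp 0.19.5 and DESeq2 1.24.0, without their roles. Not given in the sources used here are the program that made TPM, the annotation, the strand setting and the handling of reads with several matches. Reads of overlapping genes, antisense genes and near-identical copies may therefore be misassigned. TPM are shares without counts. Sequencing depth is unknown, and precision is the spread between 3 libraries.

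Symbols, biotypes and transcript lengths came from GENCODE M21 by Ensembl identifier; that annotation is of the earlier build, so promoter coordinates are GRCm38.p6 and belong to RefSeq, not to the authors' alignment. Of several RefSeq starts of a gene the first was used. The end of the promoter entry was found in a transcript of the gene, in the same orientation, for 29 of 32 members. Near-identical copies were found with blastn 2.17.0.

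The filter (1 TPM or more in 3 or more libraries) kept 11260 genes. A mean for each of the 3 groups was fitted to log2(TPM + 1) over all 9 libraries with limma 3.58.1 under R 4.3.3, with 6 residual degrees of freedom and variances moderated with a trend. Two-sided p-values were adjusted over all genes tested with the Benjamini-Hochberg method, and an adjusted p under 0.05 was called. Fold changes on this scale understate the change of low genes. Ratios were tested with exact permutation tests. The fit was also run on simulated data with independent noise for each gene and library. Those data held no length trend, so the run cannot show how the fit behaves with one. Alternatives were other pseudocounts, filters and scalings, only the groups compared, a replicate block, robust moderation and each library left out; removal of the length trend was added after the data were seen.

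Values in every library are given for members that passed, the highest and lowest fold change of each structural group, the catalytic and activator genes, Psmd4, Psmd14, and the highest and lowest level of each group, with others by their range; single values of other members were chosen after they were seen. Members, lists and tests were chosen with earlier results of these data known.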

Additional observations from a re-analysis of the deposited data

How the results depend on the processing

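Depth could not be assessed from TPM. Each comparison was refitted under 18 other settings and with the length trend removed, which was chosen after seeing the data and tested 9945 genes. Members called in LPS against Control numbered 0, and 1 with median ratio scaling (Psmd12), 0 to 2 with a library left out (Psmd12 and Psme2 without Control 1) and 3 with the length trend removed (Psmd11, Psmd12 and Psme2). In LPS+Pilo against LPS no alternative called a member. In LPS+Pilo against Control the count was 1, and 0 with median ratio scaling, 0 with only the 2 groups compared, 0 to 1 with a library left out and 3 with the length trend removed (Psmb5, Psmc2 and Psmd8). Quantile normalization called Psmb5 in place of Psmd8. Over all 11260 genes, median ratio scaling called 1293 in LPS against Control and 1525 in LPS+Pilo against Control. The counts over all genes with the length trend removed are given below. The cause of these changes was not tested.

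Deviations of same-numbered libraries correlated at -0.23 to 0.17 over genes, and those of differently numbered libraries at -0.37 to 0.3. The correlations showed no pairing by number. They cannot tell whether same-numbered libraries shared a culture or a preparation. With the replicate number as a block, 0, 0 and 2 members were called in the 3 comparisons (Psmb5 and Psmd8 in the last). Over all 11260 genes tested, the block called 459 higher and 349 lower in LPS against Control. It called 0 higher and 1 lower in LPS+Pilo against LPS, and 544 and 520 in LPS+Pilo against Control.

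Over all genes, calls in LPS against Control numbered 874, and 414 (without Control 3) to 1516 (quantile normalization) in the alternatives; in LPS+Pilo against LPS 5, and 0 to 6; in LPS+Pilo against Control 1143, and 642 (without Control 3) to 1726. The calls in LPS against Control were 464 higher and 410 lower, and 614 and 902 with quantile normalization, 671 and 327 without Control 1 and 688 and 332 without LPS 3. Those in LPS+Pilo against Control were 546 and 597, and 597 and 421 without Control 1. Those in LPS+Pilo against LPS were 1 and 4, and 1 and 0. With the length trend removed the calls in the comparisons with Control were 912 higher and 919 lower for LPS and 1009 higher and 1066 lower for LPS+Pilo.

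Of 41 fold changes followed, leaving out a library turned the sign of 10 and moved 17 others by over 1.5 times. Among the latter, LPS against Control ranged from -0.32 to -0.075 for Psma7, 0.11 to 0.23 for Psmb5, 0.29 to 0.67 for Psmc6, 0.14 to 0.45 for Psmd10 and 0.23 to 0.45 for Psmd11. LPS+Pilo against LPS ranged from -0.56 to -0.24 for Psma3, 0.10 to 0.22 for Psmd8 and -0.44 to -0.18 for Psme2. With the length trend removed, Psmb3 and Psme1 in LPS against Control were at 0.026 and 0.0256 on the log2 scale, and with median ratio scaling Psmd9 was at -0.0083. With a library left out, LPS against Control ranged from -0.0943 to 0.0852 for Psmd13, -0.0393 to 0.117 for Psmd9 and -0.0967 to 0.0956 for Psme1. LPS+Pilo against LPS ranged from -0.0814 to 0.163 for Psma5, -0.132 to 4.48e-05 for Psmb1, -0.0503 to 0.073 for Psmc2, -0.279 to 0.026 for Psmd10 and -0.0122 to 0.16 for Psme1. LPS+Pilo against Control ranged from -0.197 to 0.0939 for Psmd6 and -0.0216 to 0.171 for Psme1.

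With a library left out, the log2 ratio of Psmb8 to Psmb5 differed by -0.149 to 0.073 (LPS against Control), -0.0614 to 0.0896 (LPS+Pilo against LPS) and -0.136 to 0.0858 (LPS+Pilo against Control). That of Psmb9 to Psmb6 differed by -0.396 to 0.202 in LPS+Pilo against Control. That of Psmb10 to Psmb7 differed by -0.251 to 0.0654, -0.0528 to 0.264 and -0.100 to 0.142 in the same order.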
